A study of Mus musculus with 12 samples.

Results

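Expression of 10 genes of conventional and migratory dendritic cells was examined in mouse melanomas treated with checkpoint antibodies. The members were taken from a fixed list (Flt3, Zbtb46, Xcr1, Clec9a, Cd209a, Batf3, Wdfy4, Ccr7, Fscn1 and Itgae) and are 10 of the 22195 genes in the files. The tumours grew under the skin of immunocompetent C57BL/6J mice from YUMM 2.1 cells, a mouse melanoma line. Antibody treatment began at a tumour volume of 20 to 50 mm3, and the 4 groups of 3 libraries received isotype control IgG, anti-B7-H3, anti-PD1, or anti-B7-H3 and anti-PD1 together (the combination). The labels give no age, dose or day of sampling, and do not tie libraries to separate mice, so the p-values measure the spread between these libraries. RNA came from whole tumours, so it holds tumour, stromal and immune cells alike. The series set out to describe immune cell subsets, dendritic cells among them, in tumours of the 4 groups.

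Conventional dendritic cells carry antigen from tissue to lymph nodes and present it to T cells. They arise from precursors that need the Flt3 receptor, and Zbtb46 is a transcription factor of the conventional lineage. The type 1 subset (cDC1) depends on the transcription factor Batf3 and cross-presents tumour antigen to CD8 T cells. It carries the chemokine receptor Xcr1, the dead-cell receptor Clec9a and, in many tissues, the integrin chain Itgae (CD103), and it uses Wdfy4 for cross-presentation. Cd209a, a lectin of the DC-SIGN family, marks type 2 and monocyte-derived dendritic cells. On maturation, dendritic cells switch on Ccr7, which guides them to lymph nodes, and Fscn1, which bundles actin in their processes. Several of these genes are also made elsewhere, for example Itgae by resident T cells, and Fscn1 by other motile cells, tumour cells among them. In whole-tumour RNA, no member can be assigned to dendritic cells alone.

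The groups differed in depth and in background, so both were measured before the members were read. Anti-B7-H3 libraries held 3593110 to 3937727 reads, the combination 4409772 to 5014931, anti-PD1 8099713 to 10527704 and isotype control 15585622 to 21298142. A set of 12 satellite-like genes was taken as those with the most reads over the isotype control libraries, so that group chose the set. They took 0.212% ± 0.0741 (SD, n = 3) of reads with anti-B7-H3 and 31.4% ± 2.21 with both antibodies. Their share was 72.2% ± 2.89 with anti-PD1 and 92.4% ± 1.81 with isotype control. Olfactory receptor (Olfr) genes, 1189 in number, are not expected to be transcribed in tumours and gave the background rate. It was 0.0559 ± 0.00516 reads per coding kb with anti-B7-H3, 0.648 ± 0.0419 with both antibodies, 5.20 ± 0.250 with anti-PD1 and 6.86 ± 0.310 with isotype control. Over all 1560 chemoreceptor genes (Olfr with pheromone, taste and trace amine receptors), the rates were 0.0906, 0.695, 5.24 and 7.31 in the same order. These lay beyond 1 SD of the Olfr rate except with anti-PD1. Background and antibody group cannot be told apart, since the rates of the groups did not overlap. Levels below are reads, reads per kb of coding length, or CPM, which here means reads per 1e6 of the library size after TMM scaling. That scaled size was 12098671 to 13354210 with anti-B7-H3, 10128030 to 12191200 with both antibodies, 7591257 to 8439049 with anti-PD1 and 2499695 to 3234699 with isotype control.

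Promoter windows were read for the 8 members present in the RefSeq table (GRCm38.p6), as the 250 bases before each start. Flt3, the cDC1 receptor Xcr1, Cd209a and Wdfy4 are shown because their windows hold no annotated exon and share a GGAAGT match, the core of ETS family sites such as those of PU.1. Capitals mark that match, which reads ACTTCC where it lies on the other strand. All 4 genes lie on the minus strand, and positions are counted from the start: -75 in Flt3 (chr5:147400490-147400739), -55 in Xcr1 (chr9:123862030-123862279), -152 in Cd209a (chr8:3748985-3749234) and -146 in Wdfy4 (chr14:33185067-33185316).
Flt3: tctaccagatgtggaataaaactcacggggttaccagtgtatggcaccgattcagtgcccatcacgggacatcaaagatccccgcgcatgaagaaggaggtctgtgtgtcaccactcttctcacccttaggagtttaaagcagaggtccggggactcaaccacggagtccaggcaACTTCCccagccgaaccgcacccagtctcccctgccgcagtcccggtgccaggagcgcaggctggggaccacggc
Xcr1: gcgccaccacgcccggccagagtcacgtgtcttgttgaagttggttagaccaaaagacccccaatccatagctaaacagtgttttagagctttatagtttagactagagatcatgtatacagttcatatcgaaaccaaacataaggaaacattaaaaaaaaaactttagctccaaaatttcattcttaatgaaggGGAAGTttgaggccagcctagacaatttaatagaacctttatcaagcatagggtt
Cd209a: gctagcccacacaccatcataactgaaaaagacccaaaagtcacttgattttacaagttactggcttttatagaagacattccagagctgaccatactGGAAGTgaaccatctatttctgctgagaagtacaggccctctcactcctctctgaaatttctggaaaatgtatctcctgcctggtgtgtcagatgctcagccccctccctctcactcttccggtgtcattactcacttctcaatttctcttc
Wdfy4: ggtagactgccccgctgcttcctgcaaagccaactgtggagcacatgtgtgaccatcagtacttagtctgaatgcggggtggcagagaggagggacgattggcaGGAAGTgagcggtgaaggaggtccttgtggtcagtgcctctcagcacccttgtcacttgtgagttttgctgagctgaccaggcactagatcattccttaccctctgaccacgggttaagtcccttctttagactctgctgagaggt
GGAAGT was searched on both strands and stood in 5 of the 8 windows (the fifth is that of Batf3), against 19.7% of 32851 promoter windows of the same length. An AP-1 match (TGANTCA, which reads alike on both strands) stood in 1 window, that of Zbtb46, against 6.75% of promoters. The windows of Zbtb46, Wdfy4 and Batf3 lie inside their own annotated genes, and that of Batf3 holds 163 annotated exon bases. Neither GAAANNGAA (interferon regulatory factors, 7.13% of promoters) nor GGGANTTTC (NF-kB, 0.941%) had a match in any of the 8. Of the 4 genes printed, Cd209a and Wdfy4 were called between the combination and anti-B7-H3, Flt3 was not called and Xcr1 was too low to test.

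Summed over the 10 members, reads per library were 1428 to 1651 with anti-B7-H3, 757 to 951 with both antibodies, 493 to 563 with anti-PD1 and 183 to 209 with isotype control. Background alone would give 155 to 168 in isotype control and 116 to 128 in anti-PD1, but 14.2 to 16.1 in the combination and 1.19 to 1.43 in anti-B7-H3 libraries. Beyond background the members held 121 ± 2.97 CPM (n = 3) with anti-B7-H3, 76.4 ± 2.87 with both antibodies, 50.5 ± 2.09 with anti-PD1 and 12.7 ± 2.45 with isotype control, and no group overlapped another. The isotype control value depends on the length used for background: with the mean transcript length in place of the longest, its mean reads beyond background came to 77.8 per library, against 35.6. Fewer dendritic cells and less RNA per cell cannot be told apart in such bulk samples. Wdfy4, the longest member with a coding length of 9552 bases, made up 62.6 CPM of this sum with anti-B7-H3, 41.4 with both antibodies, 23.5 with anti-PD1 and 4.47 with isotype control.

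**Figure D1:**
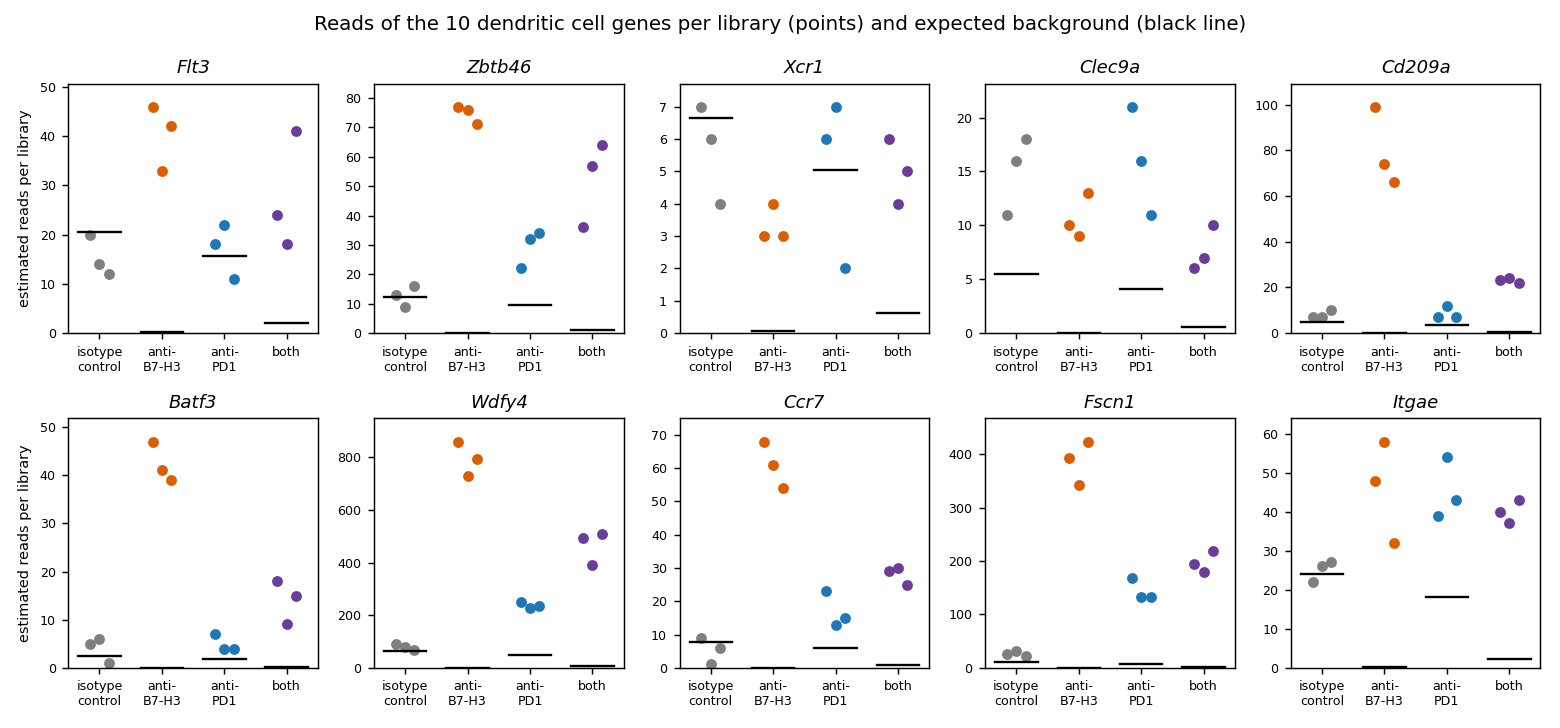
Estimated reads of each member in each library (points, vertical axis starting at 0, 3 libraries per antibody group on the horizontal axis), with the mean background expected from Olfr genes as a black line. Anti-B7-H3 libraries stand highest and far above their background for Cd209a, Batf3, Wdfy4, Ccr7 and Fscn1, while most isotype control points lie at the line.

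In isotype control libraries, 2 members stood well above the background. Clec9a had 11, 16 and 18 reads, 45 in all against 16.4 expected, and 0.421% of Olfr genes had as many reads per kb. Fscn1 had 26, 31 and 22, 79 in all against 30.5, a rate that 0.589% of Olfr genes reached. The others lay among the Olfr genes: Flt3 had 46 reads against 61.8, Zbtb46 38 against 37.1, Itgae 75 against 72.2, Ccr7 16 against 23.4 and Xcr1 17 against 20.0. Wdfy4 had 235 against 197, Cd209a 24 against 14.8 and Batf3 12 against 7.35, with 13%, 4.37% and 4.37% of Olfr genes at or above their rates. For these 8 genes, isotype control libraries give little measure of expression beyond this background.

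Anti-B7-H3 libraries gave the clearest order of levels, because their background was lowest. Per kb of coding length, Fscn1 led with 261 ± 27.8 reads, followed by Batf3 at 119 ± 11.7, Cd209a at 111 ± 24.0, Wdfy4 at 83.2 ± 6.77, Ccr7 at 53.5 ± 6.16 and Zbtb46 at 41.5 ± 1.66. Clec9a (13.4 ± 2.62), Flt3 (13.4 ± 2.22) and Itgae (13.1 ± 3.74) followed at one level, and Xcr1 was lowest at 3.44 ± 0.596. Batf3 and Cd209a, Cd209a and Wdfy4, and the trio of Clec9a, Flt3 and Itgae did not differ beyond their SD, whereas the other neighbours did. The transcription factor of cDC1 was thus measured at a rate above both of its surface receptors, Clec9a and Xcr1. In the combination, Fscn1 led again with 133 ± 13.6 reads per kb and Wdfy4 came next at 48.5 ± 6.53. Batf3 (39.2 ± 12.8), Cd209a (32.1 ± 1.39), Zbtb46 (29.0 ± 8.08) and Ccr7 (24.6 ± 2.33) formed a run whose neighbours overlapped within 1 SD. Itgae (11.4 ± 0.855), Clec9a (9.64 ± 2.62), Flt3 (9.21 ± 3.97) and Xcr1 (5.17 ± 1.03) closed the order, again with overlapping neighbours.

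With anti-PD1, Fscn1 was the only member far above the rest once background was removed, at 11.5 ± 1.26 CPM per kb. Wdfy4 followed at 2.47 ± 0.124 and Clec9a at 1.84 ± 0.696. Flt3 (0.0528 ± 0.221) and Xcr1 (-0.0139 ± 0.340) did not rise above background in these libraries. On the same scale in isotype control, Clec9a stood at 4.45 ± 2.10 and Fscn1 at 3.97 ± 1.48, and no other member exceeded 1.57.

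Xcr1, the receptor that most closely marks cDC1, stayed at 2 to 7 reads in every library and did not pass the filter on low counts. It held 10 reads in all in anti-B7-H3 libraries (95% exact Poisson interval 4.80 to 18.4, counting error only) against 0.163 expected, and 15 in the combination (8.40 to 24.7) against 1.89. Reads above background were therefore present in both groups, and the intervals overlap. With anti-PD1 it had 15 reads against 15.1. A difference in Xcr1 between groups was not detectable at these counts, which lay at background with anti-PD1 and in isotype control.

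The combination was compared with anti-B7-H3 to see what adding anti-PD1 went with. Cd209a, Batf3, Ccr7, Fscn1 and Wdfy4 were lower in the combination, by 2.99-fold for Cd209a down to 1.49-fold for Wdfy4. Flt3, Zbtb46, Clec9a and Itgae passed the filter and were not called in either direction. Of the 10 members, 5 were thus called lower, where 19.1% of the 13478 genes tested were, and 0 higher, where 19.8% were (edgeR, adjusted p under 0.05). The median log2 fold change of the 9 tested was -0.58, against 0.01 over all genes. Leaving out the satellite-like genes moved the latter to 0.11 and the former to -0.54. The same 5 genes were called in this comparison under every alternative and with each library left out.

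Cd209a, the lectin of type 2 and monocyte-derived cells, had 99, 74 and 66 reads in anti-B7-H3 libraries and 23, 24 and 22 in the combination. The groups did not overlap, and the log2 fold change was -1.58 ± 0.216 (SE; edgeR adjusted p = 5.95e-09). Batf3, the cDC1 factor, had 47, 41 and 39 reads with anti-B7-H3 and 18, 9 and 15 with the combination, a log2 fold change of -1.39 ± 0.303 (edgeR adjusted p = 0.000122). Its lowest anti-B7-H3 library lay above its highest combination library by more than the range within either group. Wdfy4, the cross-presentation gene, had 860, 730 and 793 reads against 492, 392 and 507, and differed by -0.58 ± 0.0625 (edgeR adjusted p = 2.98e-12).

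The maturation genes moved the same way. Ccr7 had 68, 61 and 54 reads with anti-B7-H3 and 29, 30 and 25 with the combination, and fell by 0.92 ± 0.226 on the log2 scale (edgeR adjusted p = 0.000626). Fscn1 had 393, 342 and 424 reads against 195, 179 and 219, and fell by 0.77 ± 0.0893 (edgeR adjusted p = 3.6e-11). In CPM, Fscn1 was 30.5 ± 2.89 with anti-B7-H3 and 17.9 ± 0.200 with the combination.

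The lineage genes showed smaller differences that did not pass the test. Zbtb46 had 77, 76 and 71 reads with anti-B7-H3 and 36, 57 and 64 with the combination. Its groups did not overlap in CPM, and the log2 fold change was -0.32 ± 0.181 (edgeR adjusted p = 0.171). Flt3 had 46, 33 and 42 reads against 24, 18 and 41, with overlap through the third combination library (-0.35 ± 0.244, edgeR adjusted p = 0.268). Clec9a had 10, 9 and 13 reads against 6, 7 and 10 (-0.28 ± 0.427, edgeR adjusted p = 0.653), few enough that the SE spans a wide range of folds. Itgae had 48, 58 and 32 reads against 40, 37 and 43 and a log2 fold change of -0.00 ± 0.209 (edgeR adjusted p = 0.991).

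**Figure D2:**
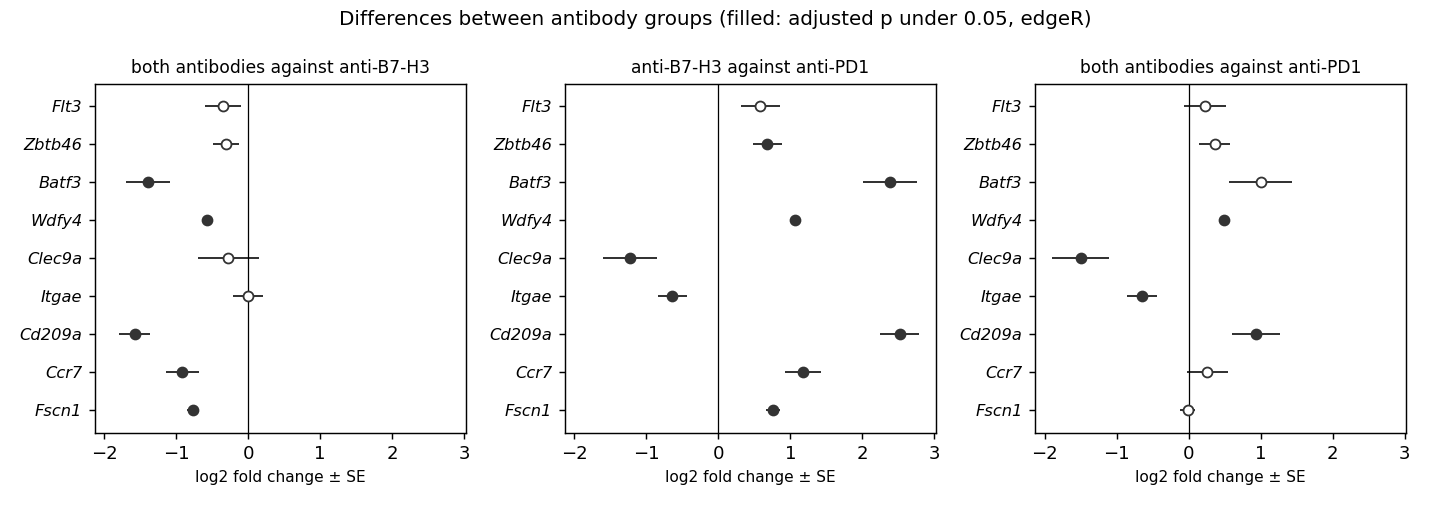
Log2 fold change ± SE (edgeR, horizontal axis) of the 9 members tested, in 3 comparisons between antibody groups of 3 libraries each. Filled points have an adjusted p under 0.05. In the left panel Batf3, Wdfy4, Cd209a, Ccr7 and Fscn1 lie below 0 and the other 4 are open.

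Cd209a has close relatives next to it on chromosome 8, and how reads shared by near-identical copies were divided is not known, so its value is uncertain to that extent. The relatives were read after their values were seen, apart from Cd209d, which is in a partner list. Cd209d had 367 reads over the anti-B7-H3 libraries and 54 over the combination (-2.55, edgeR adjusted p = 4.62e-18). Cd209e had 361 and 53 (-2.56, edgeR adjusted p = 2.02e-17), and Cd209f had 229 and 146 (-0.46, edgeR adjusted p = 0.0362). Cd209b, with 54 and 27 reads, Cd209c, with 22 and 7, and Cd209g, with 34 and 15, were not called. Cd209a, Cd209d, Cd209e and Cd209f were therefore lower in the combination together, and Cd209d and Cd209e had the lower fold changes of the 4.

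Other members overlap annotated genes, and no source used here gives the setting for strand. Lrrc18, a coding gene on the opposite strand within Wdfy4, had 4 reads in the anti-B7-H3 and 4 in the combination libraries, few beside the 2383 and 1391 of Wdfy4. Itgae overlaps Haspin and Flt3 overlaps the antisense gene Gm26597, both on the opposite strand, and Clec9a overlaps Clec1b on its own strand. The isoforms of Clec9a also differed between groups. All 45 of its isotype control reads were assigned to isoform 203 (714 bases), against 25.1 of 48 with anti-PD1, 10.5 of 32 with anti-B7-H3 and 0 of 23 with both antibodies. Clec9a values in isotype control thus rest on 1 isoform that took no read in the combination.

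Anti-B7-H3 was compared with anti-PD1 directly. Cd209a and Batf3 differed most, being 5.73-fold and 5.25-fold higher with anti-B7-H3, and Ccr7, Wdfy4, Fscn1 and Zbtb46 were higher too. Clec9a and Itgae were lower. Of the 10 members, 6 were called higher, where 30.4% of all tested genes were, and 2 lower, where 31.6% were (edgeR). The median of the 9 tested was 0.76, against -0.01 over all genes, which moved to -0.16 without the satellite-like genes, when the members' median was 0.81.

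Cd209a had 7, 12 and 7 reads with anti-PD1, 26 in all against 11.2 expected from background, and its log2 fold change was 2.52 ± 0.269 (edgeR adjusted p = 5.35e-13). Batf3 had 7, 4 and 4 (2.39 ± 0.375, edgeR adjusted p = 7.36e-08). Wdfy4 had 251, 229 and 234 reads, 714 in all against 149 expected, and differed by 1.07 ± 0.0703 (edgeR adjusted p = 2.44e-22). Ccr7 had 23, 13 and 15 reads with anti-PD1 (1.18 ± 0.251, edgeR adjusted p = 3.99e-05) and Fscn1 had 169, 132 and 132 (0.76 ± 0.0952, edgeR adjusted p = 1.43e-10). Zbtb46 had 22, 32 and 34 reads, and its difference of 0.68 ± 0.205 (edgeR adjusted p = 0.00299) was lost without the first anti-PD1 library (0.46, adjusted p = 0.0741). Flt3, with 18, 22 and 11 reads, missed the threshold at 0.58 ± 0.270 (edgeR adjusted p = 0.0561) and was called under several alternatives. These were background subtraction (2.79, adjusted p = 0.000105), no filter on low counts (0.73, adjusted p = 0.0118) and leaving out the satellite-like genes (0.63, adjusted p = 0.0309). It was also called without the second anti-B7-H3 library (0.70, adjusted p = 0.0378), the second anti-PD1 library (0.80, adjusted p = 0.0274) or any one combination library (0.60 to 0.61, adjusted p = 0.0396 to 0.0449).

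Clec9a and Itgae were the members called lower, and neither call held with background subtracted. Clec9a had 21, 16 and 11 reads with anti-PD1, and anti-B7-H3 was lower by 1.23 on the log2 scale as deposited (edgeR log2 fold change -1.23 ± 0.374, adjusted p = 0.00336). With background subtracted the fold change was similar and its error wider, at -1.06 ± 0.509 (adjusted p = 0.0811). Itgae had 39, 54 and 43 reads with anti-PD1, and its -0.64 ± 0.204 (edgeR adjusted p = 0.00517) became -0.16 (adjusted p = 0.676). Its groups overlapped, and the call was also lost without the third anti-B7-H3 library (-0.42, adjusted p = 0.0841) or the second anti-PD1 library (-0.51, adjusted p = 0.0589).

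The combination was compared with anti-PD1 to see what adding anti-B7-H3 went with. Cd209a and Wdfy4 were higher in the combination, and Clec9a and Itgae were lower, while Fscn1 and Ccr7 were not called. That is 2 of the 10 members higher, where 23.1% of all tested genes were, and 2 lower, where 23.4% were (edgeR). The median of the 9 tested was 0.26, against -0.00 over all genes. Wdfy4 rose by 0.50 ± 0.0750 (edgeR adjusted p = 6.3e-08), to 41.9 ± 3.43 CPM from 29.8 ± 1.03 with anti-PD1. Cd209a rose by 0.94 ± 0.329 (edgeR adjusted p = 0.0152), a call lost without the first anti-PD1 library (0.76, adjusted p = 0.0948) or the third (0.83, adjusted p = 0.0631). With background subtracted, Cd209a stayed called (1.59, edgeR adjusted p = 0.00594). Flt3 was not called as deposited (0.23 ± 0.286, edgeR adjusted p = 0.538) but was with background subtracted (2.35, adjusted p = 0.00195). Its 51 anti-PD1 reads lay near the 46.8 expected from background, so that size is uncertain. Batf3 was higher by 1.0 ± 0.441 without overlap between groups and missed the threshold (edgeR adjusted p = 0.0551). It passed with 3 of the libraries left out in turn, the third isotype control (adjusted p = 0.0475), the first anti-PD1 (0.0499) or the second combination library (0.0255). It also passed with no filter (1.14, adjusted p = 0.0225) and without the satellite-like genes (1.09, adjusted p = 0.0281). Fscn1 differed by -0.01 ± 0.105 (edgeR adjusted p = 0.945) and Ccr7 by 0.26 ± 0.283 (edgeR adjusted p = 0.477). Zbtb46 (0.37 ± 0.216) was called without the first combination library (0.59, edgeR adjusted p = 0.026) and with no filter (0.51, adjusted p = 0.0376). Clec9a was lower by 1.5 on the log2 scale (-1.5 ± 0.397, edgeR adjusted p = 0.00115), and by 1.44 with background subtracted (-1.44, adjusted p = 0.0375). Itgae was lower as deposited (-0.65 ± 0.209, edgeR adjusted p = 0.00845), and this did not hold without the second anti-PD1 library (-0.51, adjusted p = 0.0843) or with background subtracted (-0.21, adjusted p = 0.637).

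Each antibody group was also set against isotype control, the comparison most affected by background. All 3 of these comparisons share the isotype control libraries. As deposited, anti-B7-H3 was higher for 5 members, where 30.8% of tested genes were called higher, and lower for 3, where 33.3% were called lower (edgeR). Fscn1 was higher by 1.70 ± 0.152 (edgeR adjusted p = 4.12e-16), Ccr7 by 1.34 ± 0.357, Wdfy4 by 1.17 ± 0.0949 and Cd209a by 1.13 ± 0.298. Batf3 was higher by 1.22 ± 0.428 (edgeR adjusted p = 0.0105), which was lost without the third isotype control library, the one with 1 read (0.77, adjusted p = 0.132). Clec9a (-2.66 ± 0.382), Itgae (-1.29 ± 0.241) and Flt3 (-0.77 ± 0.289) were lower, and Zbtb46 (0.39 ± 0.267) was not called. The Flt3 call was lost without the first isotype control library (-0.68, edgeR adjusted p = 0.0917) or the second anti-B7-H3 library (-0.60, adjusted p = 0.084). It was lost as well with no filter (-0.46, adjusted p = 0.13) and without the satellite-like genes (-0.54, adjusted p = 0.0793). Zbtb46 gained a call under those settings (0.70, adjusted p = 0.0111, and 0.62, adjusted p = 0.0301).

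With background subtracted, 7 members were higher with anti-B7-H3, where 31.1% of 12933 genes tested were, and 1 was lower, where 22% were (edgeR). Flt3 and Itgae turned from lower to higher. Zbtb46, the lineage factor, was then higher by 2.82 ± 0.674 (adjusted p = 0.000934), Wdfy4 by 3.0 ± 0.200 and Ccr7 by 4.44 ± 0.857. Itgae rose by 1.54 ± 0.638 (adjusted p = 0.0433). Since Flt3 and Ccr7 had fewer isotype control reads than background would give, their fold changes after subtraction (7.67 for Flt3) depend on the prior count and are no measure of size. Zbtb46 (38 reads against 37.1) and Itgae (75 against 72.2) lay at background in isotype control, and Wdfy4 (235 against 197) little above it. The sizes of their changes after subtraction are therefore uncertain as well, here and in the other comparisons with isotype control. Fscn1 (1.63 ± 0.202) and Cd209a (1.75 ± 0.484) stayed called and Clec9a remained lower (-2.83 ± 0.542). Batf3 (1.42 ± 0.655) no longer passed (edgeR adjusted p = 0.069).

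**Figure D3:**
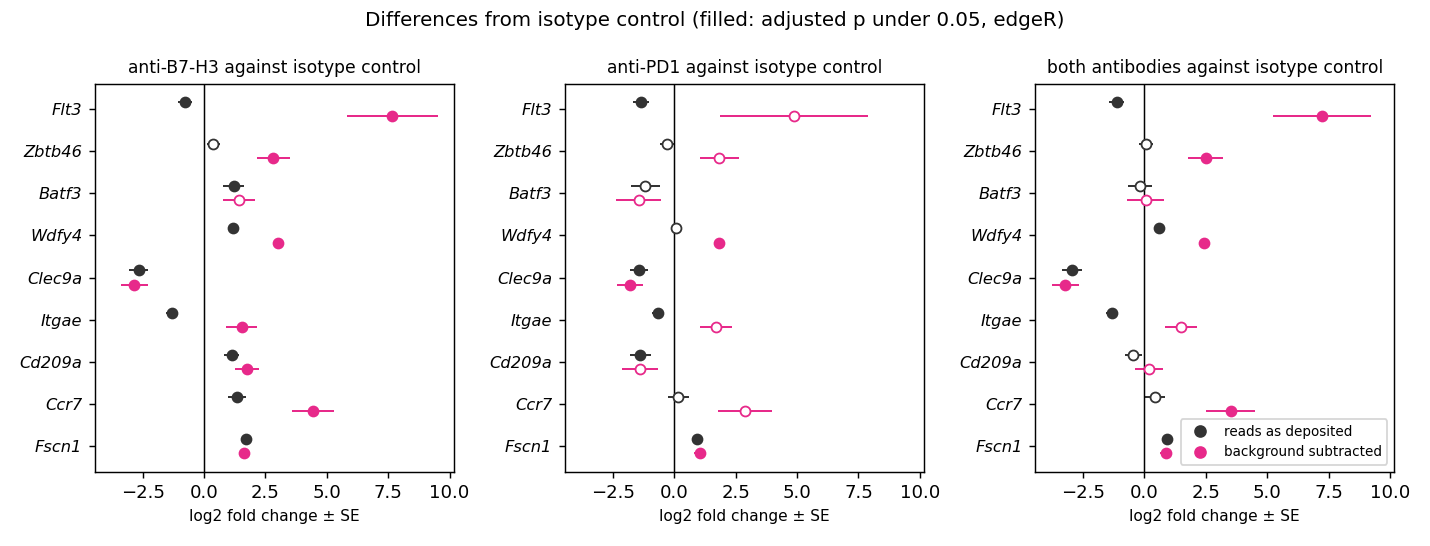
Log2 fold change ± SE (edgeR, horizontal axis) of the 9 tested members against isotype control, 3 libraries per group, as deposited (dark) and with the Olfr background subtracted (pink); filled points have an adjusted p under 0.05. Flt3 and Itgae change sign in all 3 panels, Fscn1 stays to the right and Clec9a to the left.

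Anti-PD1 was higher than isotype control for 1 member, where 17.5% of tested genes were, and lower for 4, where 20.9% were (edgeR). Fscn1 was the member that rose, by 0.94 ± 0.171 (edgeR adjusted p = 6.21e-06), from 9.54 ± 2.48 CPM to 18.0 ± 1.78. Clec9a (-1.43 ± 0.359), Cd209a (-1.38 ± 0.418), Flt3 (-1.35 ± 0.324) and Itgae (-0.65 ± 0.237) were lower. The Cd209a call was lost without the third isotype control library (-1.17, adjusted p = 0.0619). That of Itgae was lost without the second (-0.56, adjusted p = 0.117) or the third isotype control library (-0.58, adjusted p = 0.104), or the first anti-PD1 library (-0.53, adjusted p = 0.0986), with no filter (-0.49, adjusted p = 0.0717) and without the satellite-like genes (-0.47, adjusted p = 0.0809). Wdfy4 (0.09, edgeR adjusted p = 0.533) was called without those genes (0.27, adjusted p = 0.0329). Batf3 (-1.17, adjusted p = 0.104) was called without the third isotype control library (-1.61, adjusted p = 0.0299). With background subtracted, 2 members were higher, where 12.9% of genes were, and 1 was lower, where 9.02% were. Fscn1 rose by 1.04 ± 0.223 and Wdfy4 by 1.84 ± 0.237 (edgeR adjusted p = 1.71e-06), and Clec9a was lower (-1.78 ± 0.530, edgeR adjusted p = 0.0164).

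The combination was higher than isotype control for 2 members, where 27.8% of tested genes were, and lower for 3, where 29.5% were (edgeR). Fscn1 rose by 0.93 ± 0.167 and Wdfy4 by 0.59 ± 0.101. Clec9a (-2.93 ± 0.401), Itgae (-1.30 ± 0.245) and Flt3 (-1.12 ± 0.303) were lower. After subtraction 5 members were higher, where 24.6% of genes were, and 1 was lower, where 16.3% were. The 5 were Flt3, Zbtb46 (2.50 ± 0.706), Wdfy4 (2.43 ± 0.215), Ccr7 (3.51 ± 0.987) and Fscn1 (0.88 ± 0.221), and Clec9a was the lower one (-3.21 ± 0.568). Apart from that of Fscn1, the sizes of these rises rest on isotype control reads at or near background. Across the 3 comparisons, Fscn1 was called higher and Clec9a lower with and without subtraction, and these are the 2 members that stood above background in isotype control. For Clec9a all 3 comparisons rest on the same 45 isotype control reads, which were all assigned to isoform 203. Subtraction moved the median over all genes from -0.04 to 0.23 with anti-B7-H3, from -0.04 to 0.13 with anti-PD1 and from -0.01 to 0.21 with the combination. The members' medians moved from 1.13 to 1.75, from -0.65 to 1.71 and from -0.17 to 1.49. Scaling over 10693 genes at least 5 times above background moved the medians over all genes to -0.23, -0.15 and -0.21. Those genes were chosen by their mean over all 12 libraries, so they need not stand above background in isotype control.

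The interaction compares the log2 effect of giving both antibodies with the effects of the single antibodies added together. Fscn1 fell short of that sum by 1.71 (edgeR interaction -1.71 ± 0.190, adjusted p = 1.3e-11): each antibody alone went with a higher level, and the combination stood at the level of anti-PD1. Wdfy4 fell short as well (-0.67 ± 0.125, edgeR adjusted p = 1.04e-05). Flt3 exceeded the sum (1.0 ± 0.404, edgeR adjusted p = 0.0441), with 12 to 20 reads in each isotype control library. These are 1 member called higher, where 19.1% of tested genes were, and 2 lower, where 17.3% were. With background subtracted, Fscn1 (-1.79) and Wdfy4 (-2.41) remained called, Ccr7 was called (-3.83, edgeR adjusted p = 0.00775) and Flt3 turned to -5.31 without a call (edgeR adjusted p = 0.186). Of these genes only Fscn1 stood well above background in isotype control, so the sizes of the others are uncertain. The Flt3 call was also lost with any one of 8 libraries left out, under the replicate block (adjusted p = 0.0548), by the DESeq2 Wald test (adjusted p = 0.0726), with no filter (0.0986) and without the satellite-like genes (0.0747). Ccr7 (-1.08, edgeR adjusted p = 0.0651 as deposited) was called without the first isotype control, the second anti-PD1 or the second combination library (adjusted p = 0.0286, 0.0454 and 0.0429), with no filter (0.0269) and without the satellite-like genes (0.0293). Clec9a (1.45, adjusted p = 0.0462) and Itgae (0.86, adjusted p = 0.0387) were called without the first isotype control library, and Itgae without the second anti-B7-H3 library (0.84, adjusted p = 0.0396).

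Genes that work beside the members were read from 5 partner lists, first in the combination against anti-B7-H3. Of 10 cDC1 partners tested, 6 were lower and 1 higher, with a median of -0.77. Over all genes tested 19.1% were lower and 19.8% higher, with a median of 0.01, and the counts of the other lists in this comparison stand beside the same shares. Cd24a, a surface glycoprotein of this subset, fell by 2.59 on the log2 scale, from 320 reads over the 3 libraries to 46. Cxcr3, a chemokine receptor shared with T cells, fell by 1.19, and Id2, a transcriptional inhibitor needed for cDC1 development, fell by 1.0. Cadm1, an adhesion molecule, was the partner that rose, by 1.52 (133 to 334 reads). Partners of type 2 and monocyte-derived cells were lower in 8 of 12 and higher in 0 (median -0.95). They include the lectin Mgl2 (-1.36) and Irf4 (-1.33), a transcription factor of type 2 cells.

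Partners of mature dendritic cells were lower in 14 of 18 and higher in 0 (median -0.51). Il4i1, an amino acid oxidase, fell by 1.45, Birc3, an inhibitor of apoptosis, by 1.19 and Cd83, a maturation marker, by 1.15. Ligands and growth factor receptors acting on dendritic cells were lower in 6 of 8 and higher in 0 (median -0.89). Ccl5, a chemokine, fell by 1.76 and Csf2rb, the shared receptor chain for GM-CSF, by 1.0. Ccl19, a ligand of Ccr7, had 31 reads with anti-B7-H3 and 2 with the combination, a ratio of 13.5 (95% exact binomial interval 3.44 to 117). Genes of dendritic cell output to T and NK cells were lower in 3 of 6 and higher in 0 (median -0.72): Ebi3, a cytokine subunit, fell by 2.0, and the chemokines Cxcl9 and Cxcl16 by 1.43 and 1.09. Partners and members lay on the same side of 0 by their medians, as in the plot of members beside the other lists.

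**Figure D4:**
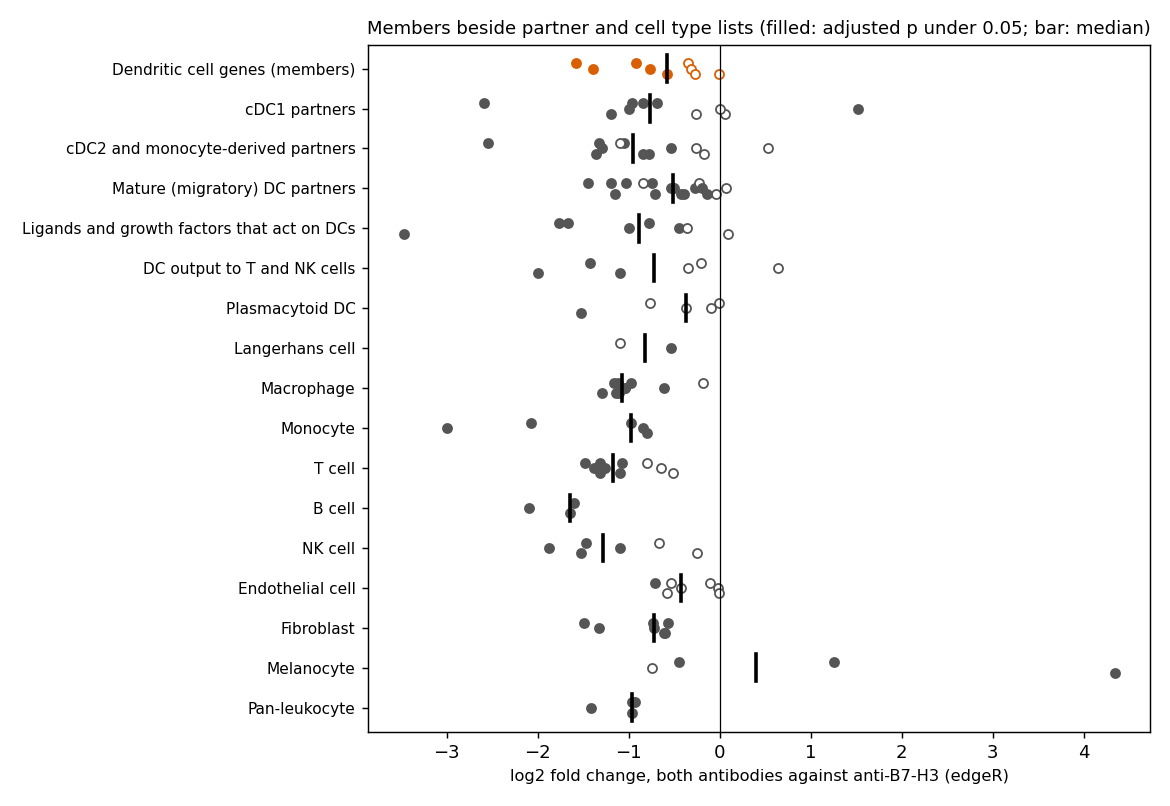
Log2 fold change of the combination against anti-B7-H3 (edgeR, horizontal axis) for each tested gene of each list (points, 1 row per list), with the median as a bar; filled points have an adjusted p under 0.05. The members' median is -0.58, and those of macrophage (-1.07), T cell (-1.17) and pan-leukocyte genes (-0.96) lie further to the left.

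Against anti-PD1, the anti-B7-H3 libraries had 7 of 10 cDC1 partners higher and 1 lower, 10 of 12 type 2 partners higher and 1 lower, and 16 of 18 mature partners higher and 0 lower. Ligands were higher in 6 of 8 and lower in 1, and output genes higher in 5 of 6. Over all genes tested 30.4% were higher and 31.6% lower. Cd24a (3.0), Ifi205 (2.68) and Clec10a, a lectin of type 2 cells (3.37), had log2 fold changes above that of Cd209a. The combination against anti-PD1 had fewer calls, except among the output genes. It had 5 higher and 1 lower of the cDC1, 7 and 1 of the type 2 and 8 and 1 of the mature partners. Ligands had 3 and 1, and output genes 5 and 0, where 23.1% of all tested genes were higher and 23.4% lower. Cd40 (1.56) and Cd83 (1.5), both of mature cells, rose in the combination, whereas Cadm1 fell by 0.91.

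Markers of other cells moved in the same comparison of the combination with anti-B7-H3, in which 19.1% of all tested genes were lower. All 4 pan-leukocyte genes were lower (median -0.96). Their summed level beyond background ran from 305 to 318 CPM with anti-B7-H3 and 152 to 159 with the combination, 56.8 to 57.6 with anti-PD1 and 21.5 to 35.7 in isotype control. Macrophage genes were lower in 9 of 10 (median -1.07), with sums of 2964 to 3019 CPM with anti-B7-H3, 1414 to 1433 with the combination, 476 to 504 with anti-PD1 and 289 to 320 in isotype control. T cell genes were lower in 7 of 10 (median -1.17), with 34.3 to 38.0, 14.9 to 16.9, 1.60 to 4.35 and 6.06 to 7.41 CPM in the same order. The order of the groups by pan-leukocyte and macrophage level was that of the members' sum. The part of overall leukocyte content in the members' differences was not tested. The members' sum beyond background was 63.0% of its anti-B7-H3 level in the combination, and the pan-leukocyte sum was 50.6%. Wdfy4 and Fscn1 held most of the members' sum. By the edgeR fit, single members ran from 0.334 (Cd209a) to 0.997 (Itgae) of their anti-B7-H3 level.

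Monocyte genes were lower in 5 of 5 (median -0.98), B cell genes in 3 of 3 (-1.64), NK cell genes in 4 of 6 (-1.28) and fibroblast genes in 7 of 7 (-0.72), with 0 higher in each. Endothelial genes were lower in 1 of 7 (-0.42), no more than the share over all genes. Markers of other dendritic cells were few. Of 5 plasmacytoid genes tested, Ly6d alone was lower (-1.52), a share near that over all genes, and of 2 Langerhans cell genes Mfge8 alone was (-0.54), while Cd207, which defines Langerhans cells, did not pass the filter. Defining markers without a read were the monocyte gene Fcnb and the pigment genes Dct and Tyrp1, all in anti-B7-H3 libraries. Background was lowest in those libraries, so a count of 0 is reached most readily there and shows no difference between groups. Melanocyte genes, by which the tumour label can be checked, had 2 of 4 tested higher and 1 lower in the combination. Their sum was 25.5 to 28.8 CPM with anti-B7-H3, 43.8 to 46.2 with the combination, 76.3 to 80.9 with anti-PD1 and 66.0 to 84.4 in isotype control.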

How the data were processed

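By the labels' protocols, the 12 libraries sequenced came from whole-tumour RNA, depleted of ribosomal RNA with a TruSeq kit for total RNA (Illumina). The protocols also give an input of at least 500 ng and an RNA integrity number no lower than 7.0. FastQC 0.11.8 and the build GRCm38 are named in the submitters' processing notes, and the quantifier, its strand setting and its handling of shared reads are not given in the sources used here. The deposited files list estimated counts and TPM per transcript, per the file headers. The tests used the authors' estimated counts, which are unscaled, and the deposited TPM values were not used, since they move with the satellite-like genes.

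Of 58083 transcripts, 610 had no match in GENCODE M21, and they held 0.0812% to 0.415% of reads. Of the lengths, 87.3% are multiples of 3, so lengths are coding lengths. Counts were summed per gene and rounded. Background was the Olfr reads per kb of a library times a gene's longest coding length. Differences came from edgeR 4.0.16, run in R 4.3.3 (quasi-likelihood test, robust spread, TMM, filter on low counts, all 12 libraries in 1 fit, 1 mean per group), for 6 pairs of groups and the interaction. Calls needed an adjusted p under 0.05 (Benjamini-Hochberg over all 13478 genes tested), and an adjusted p is from this fit unless a setting is named. The program was tested on simulated data.

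The members, the 5 partner lists and the 11 cell type lists were chosen with earlier results of these data known. At most 3 called partners per list, direction and comparison are named, those with the largest change, a mean of at least 1 CPM and no overlap between groups. Alternatives were DESeq2 1.42.0 size factors and its Wald test, no filter, only the groups compared, a replicate block, Olfr background subtracted, scaling over genes well above background, satellite-like genes left out, and each library left out in turn. For the background itself they were all chemoreceptor genes in place of Olfr genes and the mean transcript length. Precision follows from the reads given, and intervals cover counting error only.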

Additional observations from a re-analysis of the deposited data

Results flagged for a closer look

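The interaction term of the edgeR fit over all 12 libraries was called for 3 members. That is 1 of the 10 members called higher and 2 lower, near the 19.1% and 17.3% of all tested genes. For Fscn1 the interaction was -1.71 on the log2 scale (adjusted p = 1.3e-11). Anti-B7-H3 alone went with a difference of 1.70 from isotype control, and with -0.01 when added to anti-PD1. For Wdfy4 it was -0.67 (adjusted p = 1.04e-05), with 1.17 from anti-B7-H3 alone and 0.50 when it was added to anti-PD1. Both genes were also called after background subtraction. Wdfy4 had 235 isotype control reads against 197 expected from background, so the size of its term is uncertain. For Flt3 the interaction was 1.0 (adjusted p = 0.0441), with -0.77 from anti-B7-H3 alone and 0.23 when added to anti-PD1. The sign of the Flt3 value turned after background subtraction, where it was not called. In isotype control Flt3 had 46 reads against 61.8 expected from background. The Flt3 call was also lost in 8 of the 12 fits with 1 library left out, under the replicate block (adjusted p = 0.0548), by the DESeq2 Wald test (adjusted p = 0.0726), with no filter (0.0986) and without the satellite-like genes (0.0747).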

How the results depend on the processing

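The number of members called stayed within 1.5 times the main count except in 2 comparisons. Anti-PD1 against isotype control gave 5 as deposited and 3 with the Olfr background subtracted. The interaction gave 3, and 2 to 5 with single libraries left out, the 5 without the first isotype control library. Same-numbered libraries did not deviate together over all genes tested (correlations -0.0361 to 0.0435 over 18 pairs), so no pairing by number was seen. The titles give the numbers without saying whether they pair libraries. With the number as a replicate block, the interaction gave 2 calls, losing Flt3, Itgae in the combination against anti-B7-H3 turned to 0.00763, and the other 6 comparisons kept their counts.

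Signs turned for the values below, none of which was a call of the combination against anti-B7-H3. Background subtraction turned Flt3 to 7.67, 4.88 and 7.23 and Itgae to 1.54, 1.71 and 1.49 (in that order with anti-B7-H3, with anti-PD1 and with both, each against isotype control), Zbtb46 to 1.84 with anti-PD1, and Cd209a to 0.20 and Batf3 to 0.058 with the combination. In the interaction it turned Flt3 to -5.31, Itgae to -1.76 and Batf3 to 0.084. Scaling over genes well above background turned Wdfy4 (anti-PD1 against isotype control, -0.020), Zbtb46 (combination against isotype control, -0.12) and Zbtb46 in the interaction (0.094). Batf3 in the combination against isotype control was 0.13 with no filter and 0.10 without satellite-like genes. Fscn1 in the combination against anti-PD1 was 0.13 and 0.080 under the same settings. Itgae in the combination against anti-B7-H3 was 0.0066 with only those groups and 0.033 without satellite-like genes. The cause was not tested.

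With single libraries left out, values that crossed 0 ran as follows. Against isotype control, Ccr7 ran from -0.26 to 0.64 with anti-PD1 and from -0.011 to 0.89 with the combination, where Zbtb46 ran from -0.068 to 0.32 and Batf3 from -0.62 to 0.31. Itgae ran from -0.18 to 0.24 in the combination against anti-B7-H3. In the combination against anti-PD1, Flt3 ran from -0.051 to 0.45 and Fscn1 from -0.079 to 0.065. In the interaction, Zbtb46 ran from -0.24 to 0.15, Cd209a from -0.41 to 0.12 and Batf3 from -0.70 to 0.23. Of the other values under an alternative, counts of calls aside, 1136 kept direction and side of the threshold, 34 lost a call and 33 gained one. Low counts limited Xcr1 in every group, and background limited most members in isotype control.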
